A study of Mus musculus with 12 samples.

Results

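The data described here are the transcript levels of splicing factors of the SR and hnRNP families, together with the Clk kinases that phosphorylate SR proteins, in bulk RNA-sequencing of mouse submandibular glands (SMGs). Members were taken by gene symbol alone: each protein-coding gene named Srsf with a number, Hnrnp with any ending, or Clk1 to Clk4. This gave 36 of the 56065 genes listed, made up of 4 Clk, 12 SR and 20 hnRNP genes. Of these, 34 had enough counts to be tested. *Srsf12* had 1 to 12 counts in a library and *Srsf19* had 0 in each of the 12 libraries, which allows up to 3 counts per library, and neither entered a test.

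Whole SMGs were taken from C57BL/6J mice (called wild type) and from C57BL/6J-*Pou2f3*-/- mice (called knockout) at 8 weeks of age. Each genotype was sampled in females and in males, which gave 4 groups of 3 biological replicates. The knockout is global and removes *Pou2f3*, the transcription factor on which tuft cells (TCs) depend, from all tissues rather than the SMG alone, and all 4 groups share the C57BL/6J strain, with no treatment named. The comparison asked how the loss of TCs and the sex of the mouse relate to gene expression in the gland.

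SR proteins bind exons through RNA recognition motifs and recruit the spliceosome through a tail rich in arginine and serine, and the Clk kinases phosphorylate that tail and thereby release SR proteins from nuclear speckles. The hnRNPs coat newly made transcripts, and many of them hold back the use of nearby splice sites, although some promote it. Many genes of these families carry introns or poison exons through which their own splicing lowers the amount of productive mRNA, so that the RNA of such a gene can differ from the level of its protein.

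The promoters of the Clk kinases, of *Srsf5* and of *Hnrnpab* and *Hnrnpc* are shown because these genes had the largest rises and falls among the members, described further on. Each sequence holds the 200 bases before the start of the canonical transcript of Gencode M39, on the strand of the gene from 5′ to 3′ in build GRCm39. Capitals mark matches on either strand to any of 4 motifs. The E-box was searched as CACGTG and the cyclic AMP response element as TGACGTCA. The box bound by the nuclear factor Y was searched by the letters CCAAT from which it takes its name. The GC box was searched as GGGCGG. The windows lie at chr1:58463228-58463427 (*Clk1*, minus strand), chr3:89071898-89072097 (*Clk2*, plus strand), chr9:57673298-57673497 (*Clk3*, minus strand), chr11:51153741-51153940 (*Clk4*, plus strand), chr12:80992071-80992270 (*Srsf5*, plus strand), chr11:51497743-51497942 (*Hnrnpab*, minus strand) and chr14:52341615-52341814 (*Hnrnpc*, minus strand). Those of *Clk3*, *Clk4*, *Srsf5* and *Hnrnpab* fall inside the annotated gene, because other transcript models start further upstream. The last bases of the *Clk1* window also lie inside its annotated gene, whose highest position is 58463234.
Clk1: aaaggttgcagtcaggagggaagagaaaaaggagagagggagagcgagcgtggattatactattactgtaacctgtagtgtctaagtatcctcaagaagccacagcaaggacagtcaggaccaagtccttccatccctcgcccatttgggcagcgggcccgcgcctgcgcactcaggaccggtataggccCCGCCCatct
Clk2: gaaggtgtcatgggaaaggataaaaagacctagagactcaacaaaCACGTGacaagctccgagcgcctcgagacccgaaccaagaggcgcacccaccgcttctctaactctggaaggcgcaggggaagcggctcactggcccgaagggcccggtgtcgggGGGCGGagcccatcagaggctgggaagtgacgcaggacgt
Clk3: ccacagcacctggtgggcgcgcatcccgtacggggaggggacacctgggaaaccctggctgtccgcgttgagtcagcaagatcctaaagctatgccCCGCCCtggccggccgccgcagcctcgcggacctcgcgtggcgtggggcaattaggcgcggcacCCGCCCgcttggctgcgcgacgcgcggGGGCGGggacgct
Clk4: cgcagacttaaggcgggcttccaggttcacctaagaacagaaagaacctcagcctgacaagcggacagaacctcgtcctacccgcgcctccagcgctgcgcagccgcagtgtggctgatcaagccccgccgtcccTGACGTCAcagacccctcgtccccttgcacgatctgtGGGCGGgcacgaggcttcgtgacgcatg
Srsf5: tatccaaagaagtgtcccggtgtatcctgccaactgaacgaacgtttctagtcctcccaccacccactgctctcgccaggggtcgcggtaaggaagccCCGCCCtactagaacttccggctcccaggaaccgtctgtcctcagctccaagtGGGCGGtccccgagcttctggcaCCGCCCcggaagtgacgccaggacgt
Hnrnpab: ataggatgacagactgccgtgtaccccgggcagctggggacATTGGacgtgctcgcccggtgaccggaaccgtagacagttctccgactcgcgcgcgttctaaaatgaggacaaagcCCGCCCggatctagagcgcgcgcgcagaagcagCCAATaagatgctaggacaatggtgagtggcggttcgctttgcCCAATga
Hnrnpc: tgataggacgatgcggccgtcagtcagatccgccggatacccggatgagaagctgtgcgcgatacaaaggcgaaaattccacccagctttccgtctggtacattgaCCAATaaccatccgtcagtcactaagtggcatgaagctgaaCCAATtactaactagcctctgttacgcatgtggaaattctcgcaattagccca

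None of these motifs contains another. A GC box was present in the windows of 23 of the 34 tested members, against 34.9% of the windows of all 21599 protein-coding genes. The E-box occurred in 3 members (*Clk2*, *Hnrnpa3* and *Hnrnpdl*) and in 5.45% of all windows, and the cyclic AMP response element in *Clk4* and in 1.6% of all windows. A CCAAT box was found in 11 members, all of them hnRNP genes, and in 32.2% of all windows. No member held a TATAAA, which 9.58% of all windows held, or the D-box letters TTATGTAA or TTACGTAA, which 0.745% held. The median GC content was 61.8% in the windows of the tested members and 54.5% in those of all protein-coding genes. These matches describe the letters of the windows, and binding of any factor was not measured.

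Levels are given as CPM, which are counts scaled to a common library total after adjustment by TMM, the edgeR method that takes the bulk of the genes as equal between libraries. Total estimated counts ran from 47032175 to 67882207 per library, and the members took 0.118% to 0.281% of them. *Rn7s1*, the RNA of the signal recognition particle, took 11.8% to 39.1%, and TMM factors were 0.625 to 0.759 in wild-type females, 0.902 to 1.03 in knockout females, 1.04 to 1.45 in wild-type males and 1.11 to 1.25 in knockout males. The targeted gene was at the detection limit: *Pou2f3* had no count in any knockout female library, against 1, 0 and 2 counts in the female controls, and males had 1, 10 and 0 counts in wild type and 0, 3 and 1 in knockout, so these counts do not check the genotype labels. Of 7 TC markers, *Gnat3* and *Il25* were at 0 in all libraries and 2 had enough counts to test. Of these, *Avil* was higher in knockout females (log2 fold change 2.06, adjusted p 0.014) and *Dclk1* had a log2 fold change of 0.19 (adjusted p 0.22). The 7 summed to 15.5 to 19.7 CPM in wild-type females, 18.8 to 22.1 in knockout females, 7.81 to 9.19 in wild-type males and 8.05 to 9.63 in male knockouts. Acinar markers and, in males, markers of the granular convoluted tubule were abundant, which fits the labelled tissue. In a whole gland, fewer cells of a type and less RNA per cell cannot be told apart.

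Counting a gene as a differentially expressed gene (DEG) at an adjusted p under 0.05 (quasi-likelihood test of edgeR, Benjamini-Hochberg adjustment over all 17893 genes tested), 9 of the 34 members rose and 9 fell in knockout females, and none was a DEG in knockout males. Of all genes, 17.6% rose and 19.3% fell in females, and of the 14181 protein-coding genes 14.7% rose and 23.9% fell. The families differed in these counts: the risers were all 4 Clk genes, 3 SR genes and 2 hnRNP genes, and the fallers 1 SR gene and 8 hnRNP genes. The median log2 fold change was 0.07 over the members, 0.03 over all genes and −0.08 over protein-coding genes. In 24 of the 34 members the 3 knockout females did not overlap the 3 wild-type females (12 higher and 12 lower), against 49.3% of all genes.

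**Figure D1:**
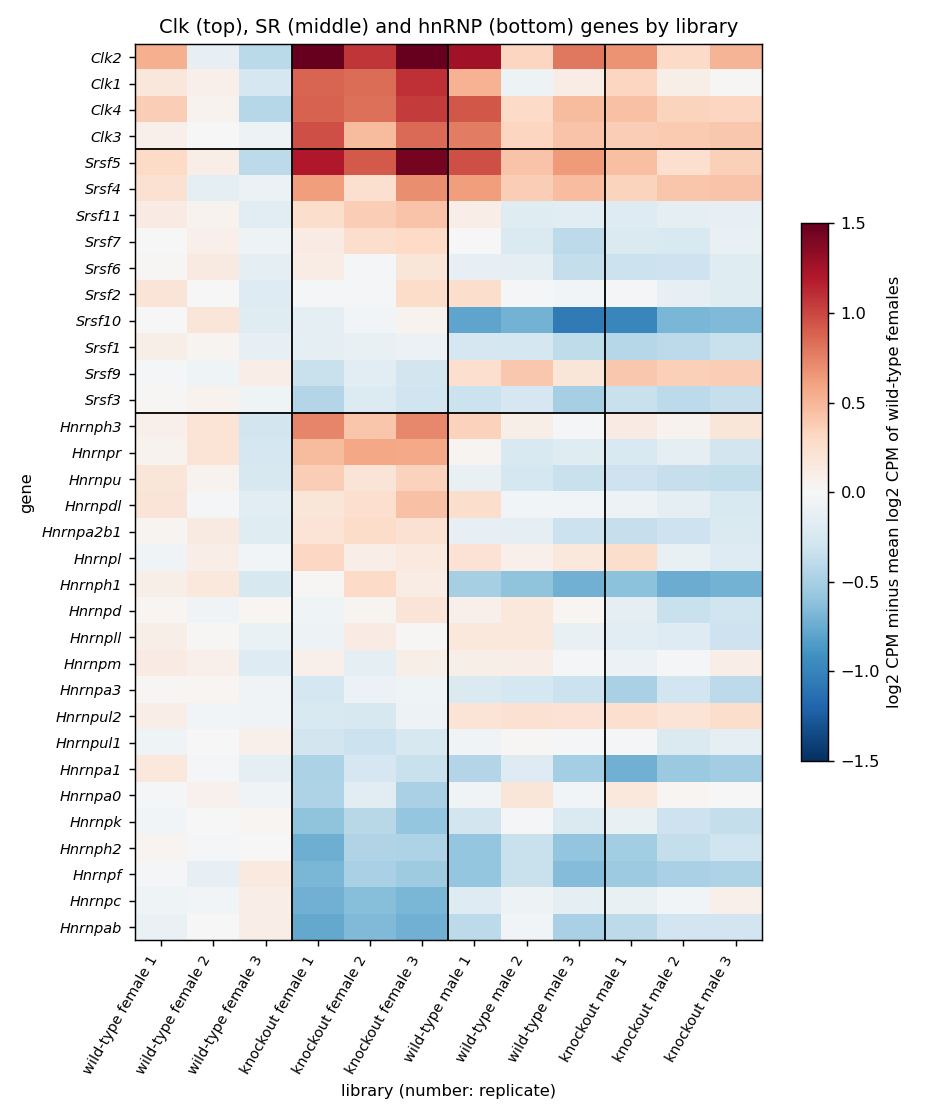
Each tested member (rows, by family and ordered by female fold change) in each of the 12 libraries (columns), as log2 CPM minus the mean log2 CPM of wild-type females. Red is higher and blue lower, with values beyond the scale in its end colour; the 4 Clk genes and *Srsf5* are red in all 3 knockout females, and *Hnrnpab* and *Hnrnpc* are blue in them.

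All 4 Clk kinases rose in knockout females, by 0.78 to 1.40 on the log2 scale with a median of 0.91. *Clk1* (ENSMUSG00000026034.18, chr1:58449348-58463234) encodes the best studied of these kinases, and its own transcript is known to be held in the nucleus with introns until splicing is completed. It was at 47.3, 44.1 and 35.3 CPM in wild-type females and 76.7, 75 and 89.4 in knockout females. The male levels were 60, 39.7 and 45.1 CPM in wild type and 52.3, 44.6 and 42.6 in knockout. Each knockout female was above each of the other 9 libraries. The female difference was 1.9-fold (log2 fold change 0.93, SE 0.16, adjusted p 9.0e-04).

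*Clk2* (ENSMUSG00000068917.13, chr3:89072098-89084228), a kinase also known for its role in hepatic metabolism downstream of insulin, had the largest rise of any member. Its levels were 9.47, 6.01 and 4.98 CPM in wild-type females and 19.9, 13.8 and 20.4 in knockout females. In males they were 15.7, 8.2 and 11.4 CPM in wild type and 10.5, 7.99 and 9.34 in knockout. The females did not overlap between genotypes, and wild-type males overlapped both female groups. The female difference was 2.63-fold (log2 fold change 1.40, SE 0.26, adjusted p 0.0016).

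*Clk3* (ENSMUSG00000032316.9, chr9:57657836-57677642) was at 26.7, 25.5 and 24.1 CPM in wild-type females and 49.6, 35.3 and 45.7 in knockout females. In males it was at 43.1, 31.9 and 34.1 CPM in wild type and at 32.9, 33.4 and 33.5 in knockout. Wild-type females were the lowest libraries, and the 3 knockout males lay close together. The female difference was 1.71-fold (log2 fold change 0.78, SE 0.13, adjusted p 9.0e-04).

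*Clk4* (ENSMUSG00000020385.17, chr11:51152552-51174060) is a close paralogue of *Clk1*. Salmon divides any reads that fit both genes between them, and the share of such reads was not measured here. *Clk4* was at 18.3, 14.8 and 10.6 CPM in wild-type females and 26.3, 25.1 and 29.5 in knockout females. In males it was at 27.2, 17.3 and 19.7 CPM in wild type and 19.2, 17.9 and 17.8 in knockout. Knockout females were above wild-type females without overlap, and 1 wild-type male reached the knockout female range. The female difference was 1.85-fold (log2 fold change 0.88, SE 0.19, adjusted p 0.0031). The female calls of the 4 kinases held in each of the 16 alternative analyses. The size of the *Clk1* difference depended on the scaling, at 0.50 (adjusted p 0.0069) with the divisors of the authors' normalized table used as gene-specific offsets.

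**Figure D2:**
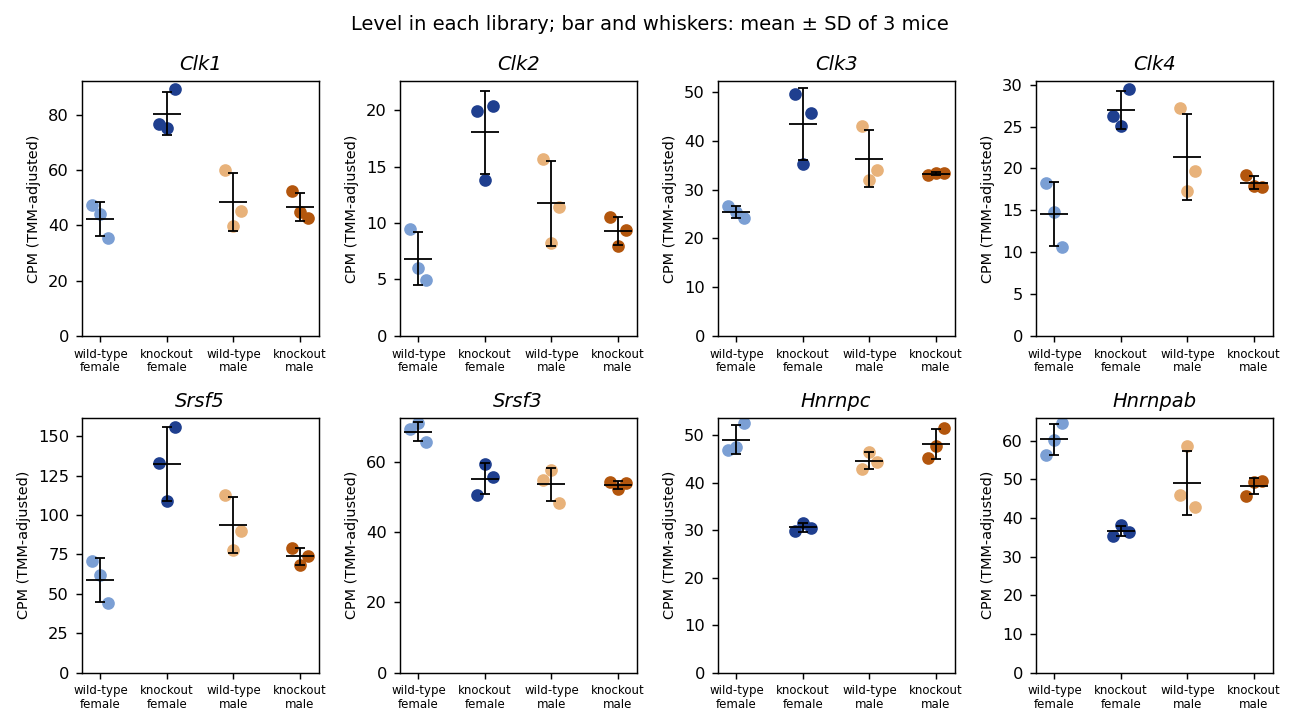
CPM of the 4 Clk genes, *Srsf5*, *Srsf3*, *Hnrnpc* and *Hnrnpab* (vertical axes, each from 0) in the 4 groups (horizontal axis). Points are libraries, and bars with whiskers are the mean ± SD of 3 mice; *Clk1* was 80.4 ± 7.85 CPM in knockout females and 42.2 ± 6.23 in wild-type females.

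Among the SR genes, *Srsf5*, *Srsf4* and *Srsf11* rose in knockout females, *Srsf3* fell and 6 were not DEGs. The family's median log2 fold change was 0.08, but −0.02 without wild-type female 3, −0.08 without knockout female 3 and 0.18 with upper-quartile scaling. *Srsf5* (ENSMUSG00000021134.18, chr12:80986436-80997630), an SR protein that was described as growth-induced in liver, was at 70.9, 61.7 and 43.9 CPM in wild-type females and 133, 109 and 156 in knockout females. In males it was at 113, 77.9 and 89.6 CPM in wild type and 78.9, 68.5 and 73.7 in knockout. The female groups did not overlap, and 1 wild-type male lay among the knockout females. Between the female groups it rose 2.25-fold (log2 fold change 1.17, SE 0.19, adjusted p 6.8e-04), and this call held in each of the 16 alternatives.

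*Srsf4* (ENSMUSG00000028911.17, chr4:131600816-131630471), an SR protein with a long arginine-serine tail, was at 9.8, 7.56 and 7.85 CPM in wild-type females and 12.9, 9.83 and 13.5 in knockout females. In males it was at 12.9, 10.8 and 11.5 CPM in wild type and 10.5, 11.1 and 11.2 in knockout. The lowest knockout female exceeded the highest wild-type female by a small margin. Between the female groups it rose 1.43-fold (log2 fold change 0.52, SE 0.14, adjusted p 0.01). This call was lost on leaving out wild-type female 2 or 3 or knockout female 1 or 3, and with the authors' divisors as offsets, where the adjusted p rose to at most 0.073. A transcribed region of unknown class, A930004J17Rik, overlaps *Srsf4* on the same strand and had at most 620 counts in a library. *Srsf4* itself had 301 to 967 counts, so the 2 were of the same order.

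*Srsf3* (ENSMUSG00000071172.14, chr17:29251321-29262347), the smallest classical SR protein and an adaptor for mRNA export, was at 69.3, 71.1 and 65.6 CPM in wild-type females and 50.6, 59.5 and 55.6 in knockout females. Male glands had 54.8, 57.6 and 48.4 CPM in wild type and 54.3, 52.3 and 53.9 in knockout. Wild-type females were the 3 highest libraries of the 12. Between the female groups it fell by 0.31 on the log2 scale (log2 fold change −0.31, SE 0.09, adjusted p 0.019), and it was no longer a DEG with upper-quartile scaling, in a fit of protein-coding genes only or with the authors' divisors, the last of which gave −0.11 (adjusted p 0.44).

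*Srsf11* rose by 0.35 on the log2 scale (adjusted p 0.02), from 60.2 ± 6.19 CPM (SD, n = 3) in wild-type females to 76.8 ± 4.4 in knockout females. It lost the call on leaving out wild-type female 2 or 3 or knockout female 2 or 3. *Srsf2* (ENSMUSG00000034120.19, chr11:116740723-116744518), which encodes the protein that marks nuclear speckles, was at 95.3, 83.4 and 73 CPM in wild-type females and 82.5, 81.4 and 101 in knockout females. Its male values were 99.8, 82.4 and 81.3 CPM in wild type and 81.7, 76.4 and 73.4 in knockout. The groups overlapped in each sex, with a male log2 fold change of −0.19 (adjusted p 0.63) and, in females, a log2 fold change of 0.07 (95% confidence interval −0.21 to 0.35, adjusted p 0.7). *Srsf10*, which represses splicing when dephosphorylated, was at 127, 145 and 113 CPM in wild-type females and 116, 124 and 132 in knockout females, with a log2 fold change of −0.05 (adjusted p 0.79). The other SR genes that were not DEGs in females were *Srsf1*, *Srsf6*, *Srsf7* and *Srsf9*, with log2 fold changes from −0.26 for *Srsf9* to 0.23 for *Srsf7*. The counts for the family moved with the settings: leaving out 1 female library at a time gave 1 to 3 risers and 1 to 2 fallers, and upper-quartile scaling or a fit of protein-coding genes only gave 4 risers and 0 fallers.

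Among the hnRNP genes the falls outnumbered the rises in females, 8 to 2, and 10 were not DEGs. The family's median log2 fold change was −0.07, but it was 0.04 with upper-quartile scaling (5 rose and 6 fell) and 0.00 in the fit of protein-coding genes only (4 rose and 6 fell). It was −0.16 without wild-type female 3, −0.15 without knockout female 3 and −0.16 with the authors' divisors as offsets. *Hnrnpc* (ENSMUSG00000060373.17, chr14:52310561-52341614), which binds uridine tracts and packages nascent RNA as a tetramer, was at 47, 47.6 and 52.6 CPM in wild-type females and 29.8, 31.6 and 30.5 in knockout females. The males were at 42.9, 46.5 and 44.5 CPM in wild type and 45.3, 47.7 and 51.6 in knockout. The knockout females were the 3 lowest libraries by a wide margin. The female fold change was 0.624 (log2 fold change −0.68, SE 0.08, adjusted p 2.3e-04), the smallest adjusted p of any member.

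*Hnrnpab* (ENSMUSG00000020358.18, chr11:51487363-51510327), which also binds DNA and regulates transcription, was at 56.4, 60.3 and 64.5 CPM in wild-type females and 35.3, 38.1 and 36.5 in knockout females. Male levels were 46, 58.6 and 42.9 CPM in wild type and 45.8, 49.3 and 49.6 in knockout. The knockout females again formed the lowest 3 libraries. The female fold change was 0.607 (log2 fold change −0.72, SE 0.11, adjusted p 5.9e-04), the largest fall of a member.

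*Hnrnpf* (ENSMUSG00000042079.14, chr6:117877257-117905485), which binds runs of guanosines, was at 106, 99.3 and 119 CPM in wild-type females and 66.9, 77 and 74.3 in knockout females. Levels in males were 72.1, 85.2 and 68.7 CPM in wild type and 73.9, 76.8 and 78.3 in knockout. Wild-type females were the highest 3 libraries, and the other 3 groups overlapped. The female fold change was 0.671 (log2 fold change −0.58, SE 0.11, adjusted p 0.0017). Its paralogue *Hnrnph2* fell by 0.54 on the log2 scale (adjusted p 0.0019), from 23.6 ± 0.516 CPM (SD, n = 3) to 16.2 ± 1.73.

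The remaining fallers were *Hnrnpk*, a protein with KH domains that binds cytidine-rich RNA, with a log2 fold change of −0.53 (adjusted p 0.0028), *Hnrnpa0* with −0.36 (adjusted p 0.015), *Hnrnpa1*, an antagonist of SR proteins at exonic silencers, with −0.35 (adjusted p 0.023), and *Hnrnpul1* with −0.28 (adjusted p 0.019). *Hnrnpk* was at 158 ± 3.6 CPM (SD, n = 3) in wild-type females and 109 ± 7.98 in knockout females. With the authors' divisors as offsets its log2 fold change was −0.22 (adjusted p 0.16). *Hnrnpa1* and *Hnrnpul1* lost the call with upper-quartile scaling and in the fit of protein-coding genes only. *Hnrnpul1* also lost it with no filter on low counts, and *Hnrnpa1* without knockout female 1. Over the 16 alternatives the log2 fold change ran from −0.74 to −0.26 for *Hnrnpa0* and from −0.63 to −0.25 for *Hnrnpa1*.

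The 2 hnRNP genes that rose were *Hnrnph3*, by 0.62 on the log2 scale (adjusted p 0.0061), from 6.07 ± 1.01 CPM (SD, n = 3) to 9.33 ± 1.15, and *Hnrnpr*. Over the 16 alternatives the log2 fold change of *Hnrnph3* ran from 0.46 to 1.05. *Hnrnpr* (ENSMUSG00000066037.15, chr4:136038247-136086758), a relative of *Syncrip*, was at 37.4, 41.6 and 30.5 CPM in wild-type females and 50.4, 54.2 and 53.6 in knockout females. The male libraries were at 37.3, 30.9 and 32 CPM in wild type and 30.9, 33.1 and 30 in knockout. The knockout females stood above all other libraries. The log2 fold change was 0.53 (SE 0.11, adjusted p 0.0031), but it turned to −0.08 (adjusted p 0.61) with the authors' gene-specific divisors as offsets. The canonical transcript of this gene is 21475 bases long, the longest of the members.

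Of the hnRNP genes that were not DEGs in females, *Hnrnpl* (ENSMUSG00000015165.17, chr7:28507966-28521693), which binds CA repeats, was at 86.3, 96.5 and 87 CPM in wild type and 111, 96.1 and 99.7 in knockout, with overlap and a log2 fold change of 0.18 (95% confidence interval −0.08 to 0.45). Wild-type males had 104, 94.7 and 99.9 CPM of it and male knockouts 108, 83.2 and 78.5, which also overlapped. *Hnrnph1* was at 122, 128 and 97 CPM in wild type and 116, 140 and 124 in knockout, with a log2 fold change of 0.13 (95% confidence interval −0.13 to 0.39), while its paralogues *Hnrnph2* and *Hnrnpf* fell. The others, *Hnrnpu*, *Hnrnpdl*, *Hnrnpa2b1*, *Hnrnpd*, *Hnrnpll*, *Hnrnpm*, *Hnrnpa3* and *Hnrnpul2*, had log2 fold changes from −0.18 for *Hnrnpul2* to 0.30 for *Hnrnpu*. With the authors' divisors as offsets *Hnrnpd* became a DEG in females, with a log2 fold change of 0.59 (adjusted p 0.029) in place of 0.06. The CCAAT box described above was present in 7 of the 9 fallers and in 1 of the 9 risers, which was *Hnrnpr*, against 32.2% of all windows. All 11 members with this box were hnRNP genes, as were 8 of the 9 fallers and 2 of the 9 risers. The GC box was present in 6 of the 9 fallers and in 7 of the 9 risers, against 34.9% of all windows. These groups were formed by the outcome, and a relation of either box to the direction apart from the family was not tested.

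**Figure D3:**
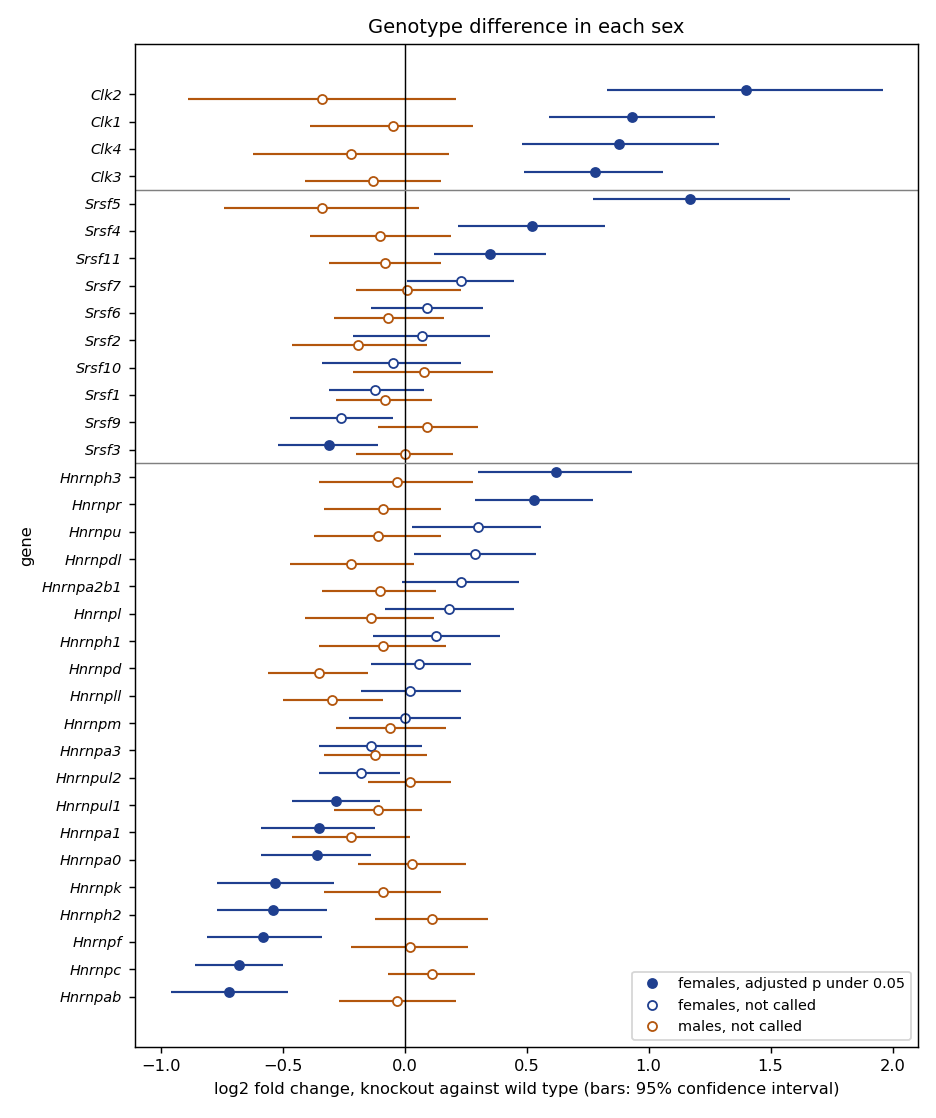
Log2 fold change of knockout against wild type (horizontal axis) for each tested member (vertical axis, by family), in females (blue) and males (orange), with bars for the 95% confidence interval and filled points for DEGs. In females the 4 Clk genes and *Srsf5* lie between 0.78 and 1.40, and no male point is filled.

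In males the same contrast gave 0 DEGs among the 34 members in edgeR's test, against 0.235% of all genes (42 of 17893). DESeq2 also called 0 members, and at an unadjusted p under 0.05 edgeR had 2 members, *Hnrnpd* and *Hnrnpll*, and 2056 of all genes. Groups did not overlap in 4 members, all of them hnRNP genes (*Hnrnpa1*, *Hnrnpd*, *Hnrnpdl* and *Hnrnpll*), against 14.5% of all genes. The median log2 fold change was −0.09 over the members and −0.04 over all genes, with 26 members below 0 and 8 above. All 4 Clk genes were below 0, between −0.34 and −0.05. Their median was −0.18, and it was 0.00 without wild-type male 1.

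*Hnrnpd* (ENSMUSG00000000568.16, chr5:100103794-100127029), which promotes the decay of mRNAs with AU-rich elements, was at 16.3, 17.2 and 15.7 CPM in wild-type males and 13.9, 12.2 and 12.5 in male knockouts. In females it was at 15.7, 14.9 and 15.7 CPM in wild type and 14.8, 15.9 and 17.7 in knockout. The male groups did not overlap, and the female groups did. The male log2 fold change was −0.35 (95% confidence interval −0.56 to −0.15, adjusted p 0.15), and without knockout male 1 it was −0.41 (adjusted p 0.048). *Hnrnpll* (ENSMUSG00000024095.17, chr17:80335472-80370014), known for its part in the splicing of *Ptprc* in lymphocytes, was at 46.5, 46.2 and 38.5 CPM in wild-type males and 37.1, 36.2 and 33.5 in male knockouts, with a log2 fold change of −0.30 (adjusted p 0.23). Its levels in females were 44, 41.9 and 38.9 CPM in wild type and 39.4, 45.3 and 42.2 in knockout. For *Srsf5* the male log2 fold change was −0.34 (95% confidence interval −0.74 to 0.06), an interval that does not reach the rise seen in females.

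The difference between the sexes was tested directly, as the female minus the male genotype difference in the same edgeR model. At an adjusted p under 0.05 it was called above 0 in 11 members, against 13.4% of all genes, and below 0 in 4, against 12.4% of all genes. By sign alone, 20 members lay above 0 and 14 below. All 4 Clk genes were among those called above 0, led by *Clk2* with a difference of 1.74 (SE 0.37, adjusted p 0.0072), as were *Srsf5* with 1.51 (SE 0.26, adjusted p 0.0041), *Srsf4*, *Srsf11*, *Hnrnph3*, *Hnrnpr*, *Hnrnpd* and *Hnrnpdl*. Those called below 0 were *Hnrnpc* with −0.79 (SE 0.12, adjusted p 0.0028), *Hnrnpab*, *Hnrnph2* and *Hnrnpf*. The split of these calls depended on the setting: 8 above and 7 below with RLE factors, 7 and 8 with the 20 most abundant genes left out of the library sizes, and 8 and 6 with the authors' divisors. With 1 library left out, 5 to 10 members were called above 0 and 4 to 8 below. It was 5 and 5 without wild-type female 3 or knockout female 3, 6 and 4 without knockout female 1, wild-type male 1, knockout male 2 or knockout male 3, 7 and 6 without wild-type female 2, and 7 and 4 without wild-type male 3. Without wild-type female 1 or knockout female 2 it was 8 and 8, and without wild-type male 2 it was 10 and 7. The Clk genes, *Srsf5*, *Hnrnpc*, *Hnrnpab*, *Hnrnpf* and *Hnrnph2* were the 9 whose call held in each of the 21 alternatives.

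Wild-type males were also set against wild-type females. At an adjusted p under 0.05, 7 members were called higher in males, against 20.5% of all genes, and 8 lower, against 16% of all genes. By sign alone, 16 members were higher and 18 lower. Those called higher were *Clk2*, *Clk3*, *Clk4*, *Srsf4*, *Srsf5*, *Srsf9* and *Hnrnpul2*. Those called lower were *Srsf1*, *Srsf3*, *Srsf10*, *Hnrnpa1*, *Hnrnpa3*, *Hnrnpf*, *Hnrnph1* and *Hnrnph2*. *Srsf10* (ENSMUSG00000028676.18, chr4:135583043-135602548) had the largest difference, at 73.8, 78.1 and 61.2 CPM in wild-type males and 64.9, 79.3 and 80.5 in male knockouts, all below the 6 female libraries given above. Its fold change between the wild-type sexes was 0.553 (log2 fold change −0.86, SE 0.13, adjusted p 2.7e-04). Over the 15 alternatives for this comparison, the log2 fold change ran from −0.95 to −0.49.

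*Hnrnph1* (ENSMUSG00000007850.17, chr11:50267127-50277364) was at 81.6, 75.3 and 69.9 CPM in wild-type males and 74.8, 68.3 and 70.1 in male knockouts. These 6 values lay below all 6 female values. The log2 fold change between the wild-type sexes was −0.61 (SE 0.12, adjusted p 0.0018), but it was −0.10 (adjusted p 0.53) with the authors' divisors as offsets, and *Hnrnpa3* turned from −0.27 to 0.55 in the same setting. *Hnrnpf* was lower in wild-type males by 0.52 on the log2 scale (log2 fold change −0.52, adjusted p 0.0025), *Hnrnph2* by 0.50 (log2 fold change −0.50, adjusted p 0.0026) and *Srsf3* by 0.36 (log2 fold change −0.36, adjusted p 0.009). Only *Srsf10*, *Hnrnpf* and *Hnrnph2* kept the call in each of the 15 alternatives run for this comparison. The members called higher fell from 7 to 1 without wild-type male 1 (7 lower) and to 2 without wild-type female 2 (7 lower) or wild-type female 3 (8 lower), and without wild-type male 3 there were 5 higher and 4 lower.

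The female genotype contrast and the contrast between the sexes share the 3 wild-type females, so their directions are tied. Wild-type females had the lowest mean of the 4 groups in 7 of the 9 risers and the highest mean in 8 of the 9 fallers. Knockout females had the highest mean in all 9 risers and the lowest in 7 of the 9 fallers. Among the risers 5 were also called higher in wild-type males than in wild-type females, and among the fallers 4 were also called lower. No value expected from the shared wild-type females alone is given, so these counts carry no test.

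Ratios of counts inside a library use no scaling between libraries. *Srsf5* to *Srsf3* was 1.02, 0.867 and 0.67 in wild-type females and 2.63, 1.83 and 2.8 in knockout females. The male values were 2.06, 1.35 and 1.85 in wild type and 1.45, 1.31 and 1.37 in knockout. The knockout females were above all wild-type females, and 2 wild-type males exceeded the lowest of them. *Clk1* to *Hnrnpc* was 1.01, 0.926 and 0.671 in wild-type females and 2.58, 2.37 and 2.93 in knockout females. In males it was 1.4, 0.854 and 1.01 in wild type and 1.16, 0.934 and 0.826 in knockout. The 3 knockout females stood above the other 9 libraries, which overlapped. *Clk2* to *Hnrnpk* was 0.0615, 0.0378 and 0.0309 in wild-type females and 0.192, 0.117 and 0.193 in knockout females. For males this ratio was 0.12, 0.0528 and 0.0837 in wild type and 0.072, 0.063 and 0.0757 in knockout, so 1 wild-type male exceeded the lowest knockout female. These pairs were chosen after their members' directions were seen, so the ratios describe unequal change between genes and carry no test.

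**Figure D4:**
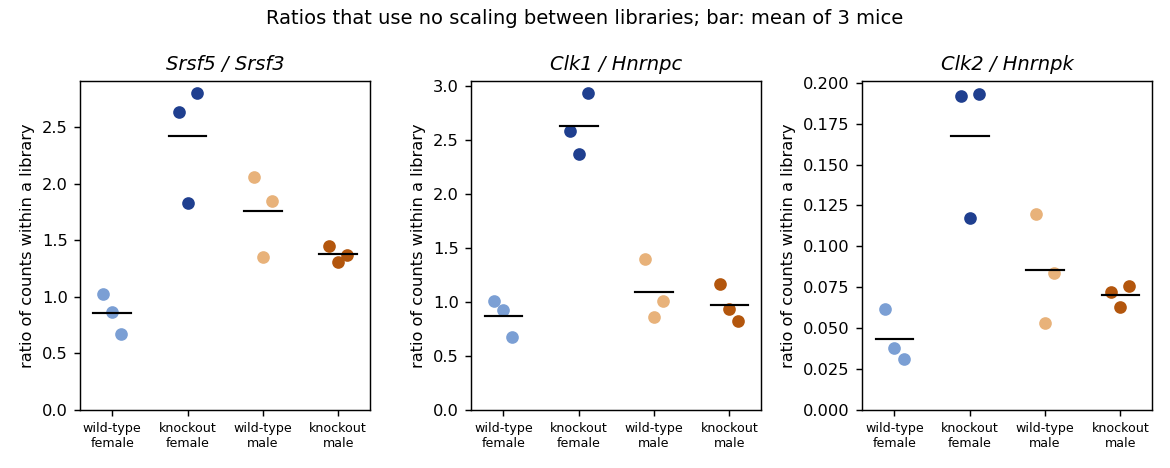
Ratio of the counts of 2 members within each library (vertical axes, from 0) in the 4 groups (horizontal axis), with points for libraries and a bar for the mean of 3 mice. In knockout females *Srsf5* to *Srsf3* ran from 1.83 to 2.8 and *Clk1* to *Hnrnpc* from 2.37 to 2.93, above every wild-type female.

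Compared per length, as mean CPM per kilobase of the canonical transcript over the 12 libraries, *Clk1* was the highest of the Clk genes at 30.2 and *Clk2* the lowest at 5.31. Among tested SR genes the range was from 4.58 for *Srsf4* to 47.6 for *Srsf5*. Among hnRNP genes it was from 1.79 for *Hnrnpr* to 44.3 for *Hnrnpl*, with *Hnrnpa2b1* at 43.5 and *Hnrnph1* at 40.3. These means pool groups that differ, and in wild-type females alone the upper ranks were others: *Srsf10* at 42, *Srsf2* at 33.7 and *Srsf5* at 31.3 among SR genes, and *Hnrnph1* at 47.9, *Hnrnpa2b1* at 45.1 and *Hnrnpl* at 41.8 among hnRNP genes. *Clk1* at 23.5 and *Clk2* at 3.16 remained the highest and lowest Clk genes there. The canonical length is that of 1 model per gene, and the level of a gene that uses other models is off by the difference in length.

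Members differ in how many transcript models with a retained intron Gencode M39 lists for them, which is an annotation and not a measurement in these glands. The 8 tested members with none had a median female log2 fold change of −0.36, with 0 risers and 5 fallers, where 9.45% of protein-coding genes rose and 23.3% fell. The median was 0.07 in the 12 members with 1 to 2 such models (3 risers and 2 fallers, against 14% and 26.5% of protein-coding genes). It was 0.23 in the 9 with 3 to 5 (3 risers and 1 faller, against 24.5% and 22.1%) and 0.35 in the 5 with 6 or more (3 risers and 1 faller, against 37.1% and 14.1%). Over protein-coding genes the corresponding medians were −0.14, −0.09, 0.06 and 0.23. Across the 34 members Spearman's rho between the number of such models and the female log2 fold change was 0.51, and without the Clk genes it was 0.41 (n = 30). Across the protein-coding genes it was 0.14. Another 2 annotation features were looked at: for the number of models subject to nonsense-mediated decay rho was 0.35 in the members and −0.03 in protein-coding genes, and for the canonical length it was −0.24 and 0.19. These points share the same 6 libraries and 1 scaling, genes are not independent replicates, and the deposited gene totals do not separate spliced from unspliced RNA. *Hnrnpk*, with 13 such models, is an exception that fell.

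**Figure D5:**
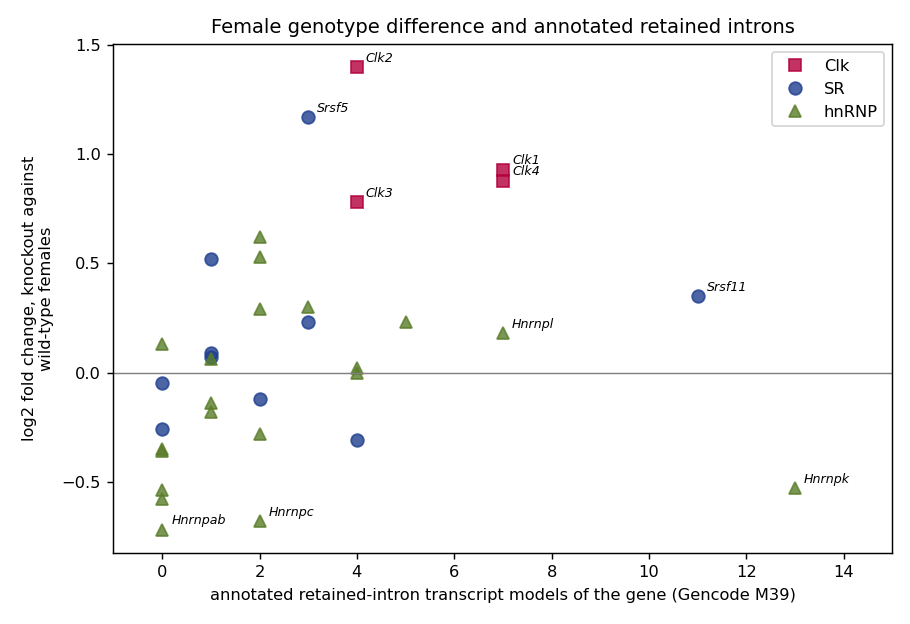
Female log2 fold change (vertical axis) against the number of annotated retained-intron models (horizontal axis) for each tested Clk (square), SR (circle) and hnRNP (triangle) gene. The 8 members with no such model have a median of −0.36 and the 5 with 6 or more a median of 0.35, with *Hnrnpk* as the low point at 13.

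The wider splicing machinery was described with lists of other genes. Of 21 SR-related proteins and coactivators, 15 rose and 2 fell in knockout females, with a median log2 fold change of 0.41, where 14.7% of protein-coding genes rose and 23.9% fell. The rises with the smallest adjusted p were *Rsrp1* with 1.31 and *Acin1* with 0.75 (adjusted p 4.8e-04 each), and the falls were *Rsrc1* with −0.43 and *Tra2b* with −0.26. *Srrm2*, a scaffold of nuclear speckles that is named here after its values were seen, rose by 1.18 (adjusted p 5.8e-04), from 242 ± 38.9 CPM (SD, n = 3) to 550 ± 105. A list of 16 genes held kinases other than Clk (of the Srpk, Dyrk and Hipk families, and *Prpf4b*) and phosphatase subunits. Of these, 4 (25%) rose, among them *Dyrk1b* with 1.17 and the phosphatase subunit *Ppp1r10* with 0.65. Another 6 (37.5%) fell, among them the phosphatase subunits *Ppp1ca* with −0.77 and *Ppp1cb* with −1.04. Whether each of the 16 acts on SR proteins in the gland was not measured.

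Core spliceosome lists had more falls than rises, as did protein-coding genes as a whole. Of 27 proteins of the U1 and U2 particles, the Sm ring and branch point recognition, 9 fell and 1 rose, with a median of −0.30; *Snrpf* had −1.07 and *Snrpb* −0.60, and the riser was *Snrnp70* with 1.86. Of 29 proteins of the tri-snRNP, the Prp19 complex and catalysis, 10 fell (*Prpf8* with −0.65 and *Prpf19* with −0.51 had the smallest adjusted p) and 4 rose (among them *Prpf39* with 0.69 and *Dhx16* with 0.57). Other hnRNP-like and regulatory factors split into 9 risers, among them *Esrp2* with 0.67 and *Ewsr1* with 0.68, and 14 fallers, among them *Pcbp1* with −0.89 and *Mbnl3* with −0.66, of 38. Nonsense-mediated decay and exon junction proteins split into 4 and 4 of 15, with *Smg6* at 0.86 and *Upf3b* at 0.67 among the risers and *Eif4a3* at −0.61 and *Rbm8a* at −0.49 among the fallers. Of the cold-inducible RNA-binding proteins, *Cirbp* rose by 0.64 (adjusted p 0.038) and *Rbm3* fell by 0.37 (log2 fold change −0.37, adjusted p 0.036). No gene of these lists was a DEG in males.

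Other RNAs moved with the Clk genes and *Srsf5*. Of 6 tested nuclear noncoding RNAs, 5 rose in knockout females, with a median log2 fold change of 1.19 over the 6. Of all genes 17.6% rose and 19.3% fell, and of the 1793 lncRNA genes tested 24.5% rose and 2.18% fell. *Neat1*, the scaffold of paraspeckles, rose by 1.55 (adjusted p 0.0058) and was at 360, 208 and 130 CPM in wild-type females and 811, 449 and 791 in knockout females. Its male levels were 784, 341 and 556 CPM in wild type and 598, 553 and 456 in knockout. In wild-type females and in wild-type males the order of the 3 libraries by *Neat1* was also their order by *Clk2* and *Srsf5*. In the knockout groups these orders differed. *Snhg11* rose by 1.26 (adjusted p 0.0031). The median female log2 fold change was 0.62 over lncRNA genes, 0.91 over transcribed regions of unknown class and 1.02 over pseudogenes, against −0.08 over protein-coding genes. The library with the highest TMM factor of its group also had the highest *Srsf5* level in wild-type females, wild-type males and knockout males. The part of these shifts in the members' differences was not tested.

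The counts of cell type markers below stand beside 17.6% of all genes that rose and 19.3% that fell in knockout females. Of protein-coding genes 14.7% rose and 23.9% fell. The summed level of 10 acinar markers, of which 5 fell and none rose in knockout females, ran from 378000 to 596000 CPM in wild-type females and from 218000 to 260000 in knockout females. It was lower still in males, at 87500 to 145000 CPM in wild type and 77400 to 118000 in knockout. The mean of each Clk gene in wild-type males was above that in wild-type females and below that in knockout females. Of 8 granular convoluted tubule markers 2 rose and none fell in knockout females, and they summed to 4370 to 8290 CPM in wild-type females, 4790 to 9140 in knockout females, 53500 to 96300 in wild-type males and 68500 to 93800 in knockout males. Of 4 tested myoepithelial markers 3 fell, and the list summed to 114 to 157 CPM in wild-type and 87.5 to 106 in knockout females. Of 7 duct markers 3 fell in knockout females, with sums of 238 to 311 CPM in wild type and 219 to 260 in knockout. The duct marker *Foxi1* was a DEG in both sexes, with log2 fold changes of −0.48 in females (adjusted p 0.027) and −0.83 in males (adjusted p 0.043). Plasma cell markers had 1 faller of 3 tested in females, which was *Xbp1* (adjusted p 4.5e-04). *Jchain* (adjusted p 0.63) and *Igha* (adjusted p 0.38) were not DEGs in females. The plasma cell list, *Xbp1* included, summed to 240 to 360 CPM in wild-type females and 149 to 165 in knockout females. The share of *Xbp1* in this sum was not tested. Endothelial markers had 1 faller of 4, with sums of 26.8 to 30.9 and 21.4 to 25.9 CPM. The lymphocyte and red blood cell lists had no DEG in females among 3 tested markers each, and the skeletal muscle list had 1 faller of 3. Of 7 macrophage markers 3 fell and none rose in knockout females, and their sum was 80 to 185 CPM in wild type and 66.1 to 100 in knockout. Of 5 adipocyte markers 2 fell and none rose, with sums of 3.25 to 41.5 and 2.4 to 4.88 CPM. In males none of the macrophage and adipocyte markers was a DEG, and all 7 macrophage and all 5 adipocyte markers had log2 fold changes above 0. The macrophage sum in males was 70.2 to 84.3 CPM in wild type and 87.8 to 157 in knockout, and the adipocyte sum 1.42 to 1.53 and 2.66 to 32. The female minus male genotype difference was called below 0 in 4 of the 7 macrophage and all 5 adipocyte markers. The part of the cell composition in the members' differences was not tested.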

How the data were processed

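Gene expression was measured by bulk RNA-sequencing in 12 SMGs. RNA was extracted from snap-frozen glands and made into stranded libraries after removal of ribosomal RNA, while the labels name polyadenylated RNA as the molecule. The authors quantified reads with Salmon 1.10.1 against Gencode M35 transcripts on GRCm39 and deposited estimated counts per gene, of which 79.8% were within 0.001 of a whole number (50.4% of those above 0). A second deposited table is a normalized signal, made by the authors from the counts with divisors that vary between genes (SD of the log2 divisor within a library 0.222 at the median); how the divisors were made is not given in the sources used here.

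Counts were rounded, and R 4.3.3 with edgeR 4.0.16 (and limma 3.58.1, on which it depends) was used for the analysis: TMM, filterByExpr, 1 mean per group over all 12 libraries, and the quasi-likelihood test with Benjamini-Hochberg adjustment over all 17893 genes tested. In females and in males knockout was set against wild type, and the difference of these contrasts and the wild-type sexes were also tested. The confidence intervals are of 95%, and the counting limit of 3 counts for a 0 covers counting error only. The steps were tested on simulated data.

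Alternatives were RLE and upper-quartile factors, the 20 most abundant genes left out of library sizes, a minimum of 10 counts in every library or no low-count filter, protein-coding genes only, the Wald test of DESeq2 1.42.0, a fit of 1 sex, a block for the replicate number, and each library left out. The use of the authors' factors as offsets was added after seeing the data. The members and gene lists were chosen with earlier results of these data known. Full values are given for all Clk genes and, in the other families, for the members with the smallest adjusted p (3 in females, 2 in each other contrast) and the highest and lowest level per length. From the other lists, at most 2 rising and 2 falling genes with the smallest adjusted p in females are named. Positions, gene classes and transcript models come from Gencode M39 (55563 identifiers found), and promoter windows from the GRCm39 genome. Some members overlap another gene on the same strand: *Hnrnpm* (664 to 1581 counts) overlaps *Marchf2* (at most 1035), and *Srsf11* (2045 to 4853 counts) a region of unknown class (at most 197). The pseudogenes *Hnrnpa1l2-ps*, *Hnrnpa1l2-ps2* and *Srsf3-ps* had at most 7 counts. Proteins of the members were not used here. Python 3.11.15 with matplotlib 3.10.9, numpy 2.4.6 and pandas 2.3.3 produced tables and figures.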

Additional observations from a re-analysis of the deposited data

Results flagged for a closer look

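In 15 members the genotype difference in females differed from that in males by edgeR's test of the difference itself, with Benjamini-Hochberg adjustment over all genes. As female minus male log2 fold change, the values were 1.74 for *Clk2*, 1.51 for *Srsf5*, 1.11 for *Clk4*, 0.98 for *Clk1*, 0.91 for *Clk3*, 0.65 for *Hnrnph3*, 0.62 for *Hnrnpr*, 0.62 for *Srsf4*, 0.50 for *Hnrnpdl*, 0.43 for *Srsf11* and 0.42 for *Hnrnpd*. They were −0.79 for *Hnrnpc*, −0.69 for *Hnrnpab*, −0.65 for *Hnrnph2* and −0.59 for *Hnrnpf*. In *Hnrnpd* and *Hnrnpdl* neither sex had a DEG call on its own. Of 21 alternatives, *Srsf11* and *Hnrnpd* kept the call in 6, *Hnrnpdl* in 8, *Srsf4* in 11, *Hnrnph3* in 12 and *Hnrnpr* in 18, and the other 9 members kept it in all 21. With 1 library left out, 10 to 17 members were called. Groups of 3 were not searched for single libraries that stand apart.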

How the results depend on the processing

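In females 16 to 21 of the members tested were DEGs under every alternative, against 18, and 11 of the 18 held in each of the 16 alternatives. The exceptions were *Srsf3*, *Srsf4*, *Srsf11*, *Hnrnpa1*, *Hnrnpk*, *Hnrnpr* and *Hnrnpul1*, and the cause was not tested. The split of 9 rising and 9 falling became 13 and 6 with upper-quartile factors, where the median of all genes was 0.13 in place of 0.03, and 12 and 6 with protein-coding genes only. The female median of the members was 0.17 with upper-quartile factors and lay between −0.06 and 0.07 with 1 library left out (−0.02 without wild-type female 3, −0.06 without knockout female 3). In males the median lay between −0.12 and −0.03 with 1 library left out, and 0 to 1 members were DEGs; the 1 was *Hnrnpd*, without knockout male 1. Between wild-type sexes 9 members were called with the authors' factors in place of 15, and 8 to 13 with 1 library left out; higher and lower calls went from 7 and 8 to 5 and 9 with RLE factors, 3 and 11 with upper-quartile factors and 5 and 12 with DESeq2. For the difference between the sexes, 11 and 4 became 11 and 8 with DESeq2. *Hnrnpr* reversed with the authors' factors, to −0.08 in females and −0.08 for the difference between the sexes. No source says that equal replicate numbers mark paired mice, and deviations of same-numbered libraries correlated at −0.11 to 0.05 in females and −0.13 to 0.09 in males. With the replicate block, 18 members were called in females, 0 in males, 14 for the difference between the sexes and 13 between wild-type sexes. Of the values of the 17 genes described in full, 1027 kept their direction and side of the threshold, 55 lost the call, 18 gained one, and 56 changed sign, 54 of them uncalled before and after and the others those of *Hnrnpr*; of the members not in this tally, *Hnrnpa3* turned from −0.27 to 0.55 between wild-type sexes with the authors' factors. Depth did not limit the 34 tested members, whose lowest count was 190.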
